A study of Mus musculus with 32 samples.

Results

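The 10 genes described here encode the core of the inflammasome and pyroptosis machinery. They are the sensors Nlrp3, Aim2 and Nlrc4, the NLRP3 partner Nek7, the adaptor Pycard (ASC), the caspases Casp1, Casp4 (caspase-11) and Casp8, the pore protein Gsdmd and the cytokine Il18. They were chosen by name and not by a cut on their values, though with earlier results of these data known. All 10 were found among the 18588 genes in the table and passed the authors' filter on low counts. Their expression was compared between microglia of rTg4510 and wild type (WT) mice at 2, 4, 6 and 8 months of age.

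rTg4510 mice are a tauopathy model that carries a tetracycline-responsive transgene for human tau with the P301L mutation and a second transgene in which the CaMKIIα promoter drives the tTA transactivator, so tau is made in forebrain neurons. The WT mice were littermates that carried neither transgene, and the labels give them the strain 129/FVB F1. All mice were female, and each library was made from microglia pooled from the forebrains of several animals and captured with CD11b beads. The groups held 4 libraries per genotype at 2 and 6 months and 3 at 4 and 8 months, 14 libraries per genotype and 28 in all, after the authors had left out 4 of 32 libraries for quality.

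Inflammasomes are cytosolic protein platforms that assemble when a sensor detects danger: NLRP3 responds to many forms of cell stress and needs NEK7, AIM2 binds cytosolic DNA, and NLRC4 acts with NAIP proteins that recognise bacterial proteins. Through the adaptor ASC these sensors bring in and activate caspase-1, which matures interleukin-1β and interleukin-18 and cuts gasdermin D, whose fragment forms pores in the plasma membrane and can kill the cell by pyroptosis. Caspase-11 cuts gasdermin D after binding bacterial lipopolysaccharide, and caspase-8 links the platform to apoptosis and restrains necroptosis. In microglia this machinery is known as a source of interleukin-1β, and RNA levels do not report the cleavage steps by which it acts.

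The 250 bases before an annotated start of Casp1, Casp4, Casp8 and Il18 are shown, because Casp1 and Casp4 were higher and Casp8 and Il18 lower in rTg4510 microglia from 4 months on. The sequences are RefSeq's, on the GRCm38.p6 build, each read 5′ to 3′ on the + strand, on which all 4 genes lie. They cover chr9:5298267-5298516 for Casp1, chr9:5308599-5308848 for Casp4 (the first of 2 annotated starts), chr1:58802252-58802501 for Casp8 and chr9:50554450-50554699 for Il18. Capitals mark matches to the NF-kappaB motif on either strand.

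Casp1: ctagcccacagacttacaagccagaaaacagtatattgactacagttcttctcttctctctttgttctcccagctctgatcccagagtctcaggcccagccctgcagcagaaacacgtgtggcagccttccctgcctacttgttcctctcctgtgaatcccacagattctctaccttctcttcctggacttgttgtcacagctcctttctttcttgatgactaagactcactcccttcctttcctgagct

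Casp4: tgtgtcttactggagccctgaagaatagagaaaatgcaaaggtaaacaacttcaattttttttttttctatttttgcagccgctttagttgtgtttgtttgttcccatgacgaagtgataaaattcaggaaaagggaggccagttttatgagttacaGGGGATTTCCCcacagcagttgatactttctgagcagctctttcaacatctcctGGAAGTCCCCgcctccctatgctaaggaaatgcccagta

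Casp8: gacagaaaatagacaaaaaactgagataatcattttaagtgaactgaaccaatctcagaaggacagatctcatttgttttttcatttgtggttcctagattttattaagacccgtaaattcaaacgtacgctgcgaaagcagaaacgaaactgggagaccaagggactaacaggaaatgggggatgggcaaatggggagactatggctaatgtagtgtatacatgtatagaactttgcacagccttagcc

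Il18: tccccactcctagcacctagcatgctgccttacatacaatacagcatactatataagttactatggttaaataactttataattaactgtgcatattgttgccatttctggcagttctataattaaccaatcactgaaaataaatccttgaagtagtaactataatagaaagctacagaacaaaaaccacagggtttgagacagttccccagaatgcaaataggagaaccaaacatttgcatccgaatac

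NF-kappaB is the factor that induces many inflammatory genes. Its motif was found in the Casp4 sequence in a stretch from position -93 to -83, where matches on both strands overlap, and again on the other strand from -39 to -30, counted back from the start. The only other member with a match was Nlrp3, before the second of its 2 annotated starts, at -186 to -177. The windows searched held 250 bases before to 50 after a start, and 9 of the 10 members had an entry. Over all 32851 promoters in the RefSeq set, 8.46% held this motif, so 2 members with a match is a description and no excess is claimed. The interferon-stimulated response element GAAANNGAAA (3.44% of all promoters), the GAS element TTCNNNGAA (8.30%) and the AP-1 motifs TGACTCA and TGAGTCA (5.2%) were found in 0 members on either strand. The PU.1 core GAGGAA, for the factor that defines myeloid cells, was found on either strand in 4 members, Nlrp3, Aim2, Pycard and Casp1, and in 28.3% of all promoters.

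The deposited values are log2 gene signals, made from exon counts, so a difference of 1 is a 2 fold change. A gene was called a differentially expressed gene (DEG) when its Benjamini-Hochberg FDR over all 18588 genes was under 0.05 and its change was above 1.5 fold, and it is said to pass the FDR when the first criterion alone was met. Levels are not compared between genes, since the signals are not per length.

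The members lie on 6 chromosomes (RefSeq, GRCm38.p6). The sensors and their partner are at chr11:59541569-59566955 (Nlrp3), chr1:173349547-173466040 (Aim2), chr17:74426255-74459144 (Nlrc4) and chr1:138483837-138619757 (Nek7). Pycard is at chr7:127991373-127993867, Casp8 at chr1:58795233-58847503, Gsdmd at chr15:75862144-75867408 and Il18 at chr9:50554700-50581841. Casp1 and Casp4 are neighbours, at chr9:5298517-5307281 and chr9:5308849-5336791.

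Genotype differences were small for most members. Of the 10 members, 0 were DEGs at 2 months, 1 at 4 months (Nlrc4, lower in rTg4510), 1 at 6 months (Nlrc4, lower) and 1 at 8 months (Casp4, higher). The share of all genes that were DEGs and higher in rTg4510 was 1.58%, 9.47%, 11.3% and 10.5% at 2, 4, 6 and 8 months. The share that were DEGs and lower was 0.403%, 4.33%, 8.54% and 5.37%. One member in 10 is near these shares, so the number of DEGs among the members is not a result about them. At 2 months limma's unmoderated test gave 3 members an unadjusted p under 0.05 (Casp1, Casp4 and Il18), and limma's moderated test called 0.

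On the FDR alone 0, 6, 8 and 6 members passed at 2, 4, 6 and 8 months. Under limma's moderated test the numbers were 0, 6, 7 and 4, without Pycard at 6 and 8 months and Gsdmd at 8 months (FDR 0.059). The members that passed as higher in rTg4510 numbered 0, 2, 4 and 3, beside 4.76%, 14.1%, 19.1% and 16% of all genes at the 4 ages. Those that passed as lower numbered 0, 4, 4 and 3, beside 1.27%, 9.1%, 14.9% and 9.78% of all genes. The median size of the members' log2 fold changes was 0.13, 0.31, 0.36 and 0.34, and that of all genes was 0.16, 0.29, 0.32 and 0.31. The members' differences were thus about as large as those of all genes. Under quantile normalization the members that passed split into 2 higher and 5 lower at 6 months and 2 higher and 4 lower at 8 months, since Pycard (both ages) and Nek7 (6 months) no longer passed as higher and Aim2 passed as lower.

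Library values of the genotypes did not overlap for 3 members at 2 months (Aim2, Casp1 and Casp4), and for 7, 5 and 6 members at 4, 6 and 8 months. Over all genes the share without overlap was 11%, 36.6%, 32.8% and 36.7%. Casp1 and Casp4 showed no overlap at any age, and Casp8 and Il18 none at 4, 6 and 8 months.

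**Figure D1:**
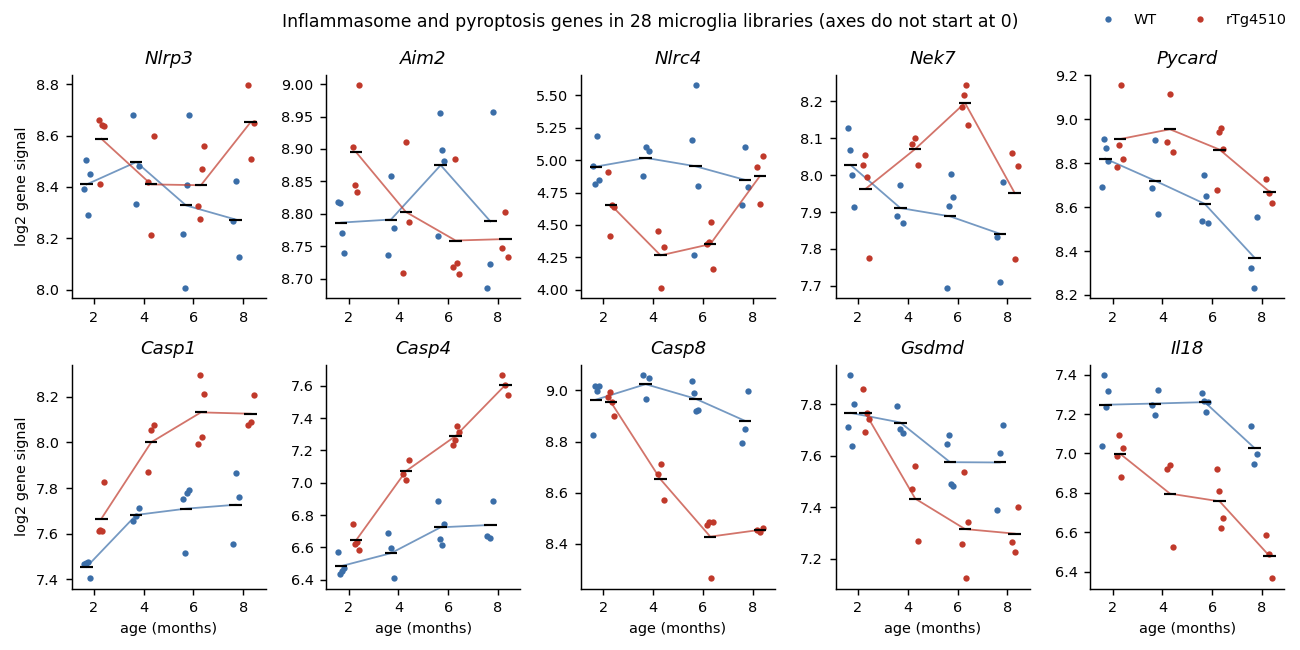
Log2 gene signal (y axis, not starting at 0) of the 10 members against age in months (x axis), 1 point per library, with WT in blue and rTg4510 in red, short bars at the group means and lines joining them. Casp1 and Casp4 lie higher in every rTg4510 library than in the WT libraries of the same age, Casp8 and Il18 lie lower from 4 months on, and Nlrp3 and Aim2 overlap at most ages.

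Among the sensors, Nlrp3 and Aim2 did not pass the FDR at any age in the fit to all 28 libraries, where Nlrp3 at 8 months was at the threshold, and Nlrc4 was lower in rTg4510 at 4 and 6 months. For Nlrp3 (Entrez 216799), the sensor most studied in microglia, the 28 libraries ranged from 8.01 to 8.80 with a median of 8.44. At 8 months the signals were 8.27, 8.42 and 8.13 in WT and 8.80, 8.51 and 8.65 in rTg4510. Every rTg4510 library was above every WT library at that age, with a difference in log2 signal of 0.38 ± 0.14 (SE) and an FDR of 0.052 by limma. It passed in 9 of 34 other settings. The FDR was 0.22 under quantile normalization, 0.18 with all 32 libraries and 0.14 when only the groups compared were fitted. At 2, 4 and 6 months the groups overlapped and the log2 differences were 0.18 ± 0.12, -0.09 ± 0.14 and 0.08 ± 0.12, with FDR values of 0.54, 0.71 and 0.66. The 95% interval at 6 months ran from -0.17 to 0.33, and the difference between the 8 and 6 month effects of Nlrp3 did not pass the FDR.

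Aim2, the sensor of cytosolic DNA, varied least of the members. Its signals over the 28 libraries ran from 8.69 to 9.0. At 2 months they were 8.82, 8.82, 8.77 and 8.74 in WT and 8.90, 8.84, 8.83 and 9.0 in rTg4510, so that the rTg4510 libraries were all above, by 0.11 ± 0.06 (FDR 0.38). At 6 months the direction was the opposite, with a mean of 8.88 ± 0.08 (SD, n = 4) in WT and 8.76 ± 0.08 (SD, n = 4) in rTg4510 and a log2 difference of -0.12 ± 0.06 (FDR 0.14). Under quantile normalization Aim2 was lower in rTg4510 at 6 months by a log2 difference of -0.27 (FDR 0.001) and at 8 months by -0.19 (FDR 0.042), so its call depends on the scaling. Aim2 overlaps Cadm3 on the other strand, and whether reads were counted by strand is not given in the sources used here.

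Nlrc4, the sensor that works with NAIP proteins, showed the largest decreases among the members, at 4 and 6 months. At 4 months its log2 signals were 4.88, 5.10 and 5.07 in WT and 4.46, 4.01 and 4.33 in rTg4510. The groups did not overlap and the log2 difference was -0.75 ± 0.22, a 1.69 fold decrease with an FDR of 0.018. At 6 months the WT libraries spread over 5.16, 4.27, 5.58 and 4.80, and the rTg4510 libraries were 4.36, 4.37, 4.52 and 4.16. Here 1 WT library lay among the rTg4510 libraries, and the log2 difference was -0.60 ± 0.19, a 1.52 fold decrease with an FDR of 0.020. At 8 months the signals were 4.65, 5.10 and 4.79 in WT and 4.94, 4.66 and 5.03 in rTg4510, a difference of 0.03 ± 0.22 (FDR 0.94). The genotype effect at 8 months exceeded that at 6 months by 0.63 ± 0.30 on the log2 scale, which did not pass the FDR, as 0% of all genes did in that comparison.

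The Nlrc4 calls were lost without single libraries. At 4 months the FDR rose to 0.087 without rTg4510 replicate 2, to 0.058 without WT replicate 2 and to 0.056 without WT replicate 4. At 6 months the log2 difference shrank to -0.39 (FDR 0.094) without WT replicate 3, and the FDR was 0.061 without rTg4510 replicate 4 and 0.064 without WT replicate 1. Fitting only the groups compared gave an FDR of 0.056 at 4 months and 0.18 at 6 months, and adding the 4 libraries that were left out gave 0.11 at 6 months. Nlrc4 is also known from neutrophils and monocytes. The 10 neutrophil markers had a summed level of 9.83 to 10.8 in WT and 9.62 to 9.98 in rTg4510 at 4 months, of 9.75 to 10.7 against 8.99 to 9.26 at 6 months and of 10.5 to 10.8 against 9.12 to 9.77 at 8 months (log2 of the sum). The 8 monocyte markers had a summed level of 8.54 to 9.13 in WT and 8.20 to 8.24 in rTg4510 at 4 months. At 6 months their level was 8.64 to 8.92 against 8.24 to 9.01, and at 8 months 8.66 to 9.16 against 8.77 to 9.12. The Nlrc4 groups overlapped at 8 months, when the neutrophil level was lower in rTg4510 and the monocyte level overlapped. The part of such cells in the Nlrc4 result was not tested.

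The NLRP3 partner Nek7 was higher in rTg4510 at 6 months. Its log2 signals then were 7.69, 7.92, 8.00 and 7.94 in WT and 8.18, 8.22, 8.24 and 8.14 in rTg4510. All 4 rTg4510 libraries lay above all WT libraries, by 0.31 ± 0.08, a 1.24 fold increase with an FDR of 0.0032. The 4 month groups did not overlap either, at 0.16 ± 0.09 (FDR 0.21), and at 2 and 8 months they did, at -0.06 ± 0.08 and 0.11 ± 0.09. An antisense gene overlaps Nek7, and reads of the pair cannot be told apart without strand. Under quantile normalization the 6 month FDR was 0.058.

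Pycard, which encodes the adaptor ASC, was higher in rTg4510 at 6 and 8 months by small amounts. At 8 months its log2 signals were 8.32, 8.23 and 8.56 in WT and 8.73, 8.66 and 8.62 in rTg4510. The groups did not overlap, and the log2 difference was 0.30 ± 0.11, a 1.23 fold increase with an FDR of 0.047. At 6 months the groups overlapped, with 8.61 ± 0.10 (SD, n = 4) in WT and 8.86 ± 0.13 (SD, n = 4) in rTg4510, a log2 difference of 0.25 ± 0.09 and an FDR of 0.049. Both values lie at the threshold: limma's moderated test gave 0.056 and 0.055, quantile normalization 0.49 and 0.31, and each passed in 10 of the 28 fits that left out 1 library. Over age Pycard fell in WT microglia, from 8.82 ± 0.09 (SD, n = 4) at 2 months to 8.37 ± 0.17 (SD, n = 3) at 8 months, a change of -0.45 ± 0.10 on the log2 scale with an FDR of 0.017.

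Both inflammatory caspases among the members were higher in rTg4510. Casp4, the mouse gene for caspase-11, gave the clearest difference of all members. At 2 months its log2 signals were 6.57, 6.44, 6.46 and 6.47 in WT and 6.74, 6.62, 6.63 and 6.59 in rTg4510, and at 4 months they were 6.69, 6.60 and 6.41 in WT and 7.06, 7.02 and 7.14 in rTg4510. At 6 months they were 6.89, 6.65, 6.61 and 6.74 in WT and 7.23, 7.26, 7.35 and 7.31 in rTg4510. At 8 months they were 6.67, 6.66 and 6.89 in WT and 7.67, 7.60 and 7.54 in rTg4510. At each age every rTg4510 library lay above every WT library, and the 3 rTg4510 libraries of 8 months were the highest of all 28.

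The log2 differences of Casp4 were 0.16 ± 0.06 at 2 months (FDR 0.19), 0.51 ± 0.07 at 4 months (FDR 2.34e-05), 0.56 ± 0.06 at 6 months (FDR 4.74e-07) and 0.87 ± 0.07 at 8 months (FDR 1.62e-08). These are 1.12, 1.42, 1.48 and 1.82 fold increases, of which the last was above 1.5 fold. The genotype effect was larger at 4 than at 2 months by 0.35 ± 0.10 on the log2 scale (FDR 0.035). It was larger at 8 than at 6 months by 0.30 ± 0.10 with an unadjusted p of 0.0063, which did not pass over all genes. Casp4 also rose with age in WT, by 0.25 ± 0.07 from 2 to 8 months (FDR 0.043). The 8 month call was made in 34 of the 34 other settings, and leaving out any 1 library kept the log2 difference between 0.83 and 0.94. 129 strains are known to carry a Casp4 mutation that inactivates caspase-11, and the Casp4 alleles of these mice were not analysed here.

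Casp1, the caspase that all canonical inflammasomes activate, was higher in rTg4510 from 4 months on without reaching 1.5 fold. At 2 months its log2 signals were 7.47, 7.47, 7.48 and 7.40 in WT and 7.61, 7.62, 7.61 and 7.83 in rTg4510. At 4 months they were 7.66, 7.68 and 7.71 in WT and 7.87, 8.05 and 8.08 in rTg4510. At 6 months they were 7.75, 7.52, 7.78 and 7.79 in WT and 7.99, 8.30, 8.02 and 8.21 in rTg4510, and at 8 months 7.55, 7.86 and 7.76 in WT and 8.08, 8.09 and 8.21 in rTg4510. The groups did not overlap at any age. The log2 differences were 0.21 ± 0.08 at 2 months (FDR 0.13), 0.32 ± 0.09 at 4 months (FDR 0.012), 0.42 ± 0.08 at 6 months (FDR 0.00019) and 0.40 ± 0.09 at 8 months (FDR 0.0018). The 1.16 fold difference at 2 months had the same direction as the later ones, and no change of the Casp1 genotype effect between neighbouring ages passed the FDR. When only the groups compared were fitted, the FDR of Casp1 was 0.064 at 4 months and 0.087 at 8 months, and without rTg4510 replicate 4 it was 0.059 at 4 months.

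Casp8, the initiator caspase of death receptors, went the other way. At 2 months the genotypes covered the same range, at 8.83, 9.02, 9.0 and 9.02 in WT and 8.97, 8.99, 8.95 and 8.90 in rTg4510. At 4 months the log2 signals were 9.06, 8.96 and 9.05 in WT and 8.67, 8.71 and 8.57 in rTg4510, and at 6 months they were 9.04, 8.99, 8.92 and 8.92 in WT and 8.48, 8.49, 8.26 and 8.49 in rTg4510. At 8 months WT libraries gave 8.80, 8.85 and 9.0 and rTg4510 libraries gave 8.45, 8.45 and 8.46. From 4 months on every rTg4510 library lay below every WT library of its age.

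The log2 differences of Casp8 were -0.01 ± 0.05 at 2 months (FDR 0.97), -0.37 ± 0.06 at 4 months (FDR 9.66e-05), -0.54 ± 0.05 at 6 months (FDR 5.82e-08) and -0.43 ± 0.06 at 8 months (FDR 1.53e-05). They are decreases of 1.29, 1.45 and 1.34 fold at the last 3 ages, under the 1.5 fold that a DEG required. The 95% interval at 2 months, from -0.12 to 0.10, does not reach the later values, and the genotype effect at 4 months minus that at 2 months was -0.36 ± 0.08 (FDR 0.0082). Within rTg4510 mice Casp8 fell by 0.30 on the log2 scale between 2 and 4 months (FDR 0.0010). With the 4 libraries that were left out added, the Casp8 difference at 4 months was -0.18 (FDR 0.22).

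Gsdmd encodes gasdermin D, the protein that caspase-1 and caspase-11 cut to form the pore. At 2 months its groups overlapped, with 7.77 ± 0.12 (SD, n = 4) in WT and 7.77 ± 0.07 (SD, n = 4) in rTg4510 and a 95% interval of the log2 difference from -0.18 to 0.18. At 4 months the signals were 7.79, 7.70 and 7.69 in WT and 7.47, 7.56 and 7.27 in rTg4510, all lower, by -0.30 ± 0.10 (FDR 0.038). At 6 and 8 months the groups overlapped and the log2 differences were -0.26 ± 0.09 (FDR 0.025) and -0.28 ± 0.10 (FDR 0.048). These are decreases of 1.2 to 1.23 fold over the 3 ages, and the FDR stayed under 0.05 in 23, 24 and 9 of the 28 fits that left out 1 library. When only the groups compared were fitted it was 0.14, 0.11 and 0.21. The pore gene was thus lower, not higher, from 4 months on, while Casp1 and Casp4 were higher and Casp8 was lower.

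Il18, the cytokine that caspase-1 matures, was lower in rTg4510 microglia. At 2 months the log2 signals were 7.04, 7.40, 7.24 and 7.32 in WT and 6.99, 7.09, 6.88 and 7.03 in rTg4510, with overlap, at -0.25 ± 0.09 (FDR 0.13). At 4 months they were 7.24, 7.19 and 7.32 in WT and 6.92, 6.94 and 6.52 in rTg4510. At 6 months they were 7.30, 7.27, 7.21 and 7.26 in WT and 6.92, 6.81, 6.62 and 6.67 in rTg4510. At these ages and at 8 months, with 7.14, 6.94 and 7.0 in WT and 6.58, 6.49 and 6.37 in rTg4510, the groups did not overlap.

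The log2 differences of Il18 were -0.46 ± 0.10 at 4 months (FDR 0.0023), -0.50 ± 0.09 at 6 months (FDR 0.00014) and -0.55 ± 0.10 at 8 months (FDR 0.00035), which are decreases of 1.37, 1.42 and 1.46 fold. With the 4 libraries that were left out added, the Il18 difference at 4 months was -0.16 (FDR 0.45), and when only the groups compared were fitted its FDR was 0.14. No difference between neighbouring ages passed the FDR for Il18. In bulk libraries fewer cells that express a gene and less of its RNA per cell cannot be told apart. Il18 overlaps Bco2 and Tex12 on the other strand, with the same limit on strand as above.

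**Figure D2:**
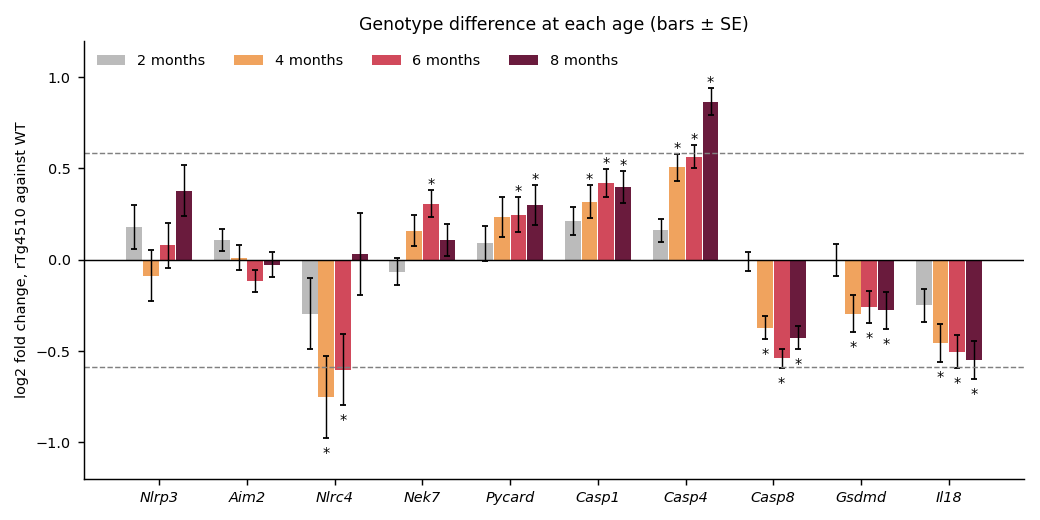
Log2 fold change of rTg4510 against WT (y axis) for each member (x axis), with 1 bar per age, error bars of 1 SE, asterisks where the FDR was under 0.05 and dashed lines at a 1.5 fold change. Casp4 at 8 months (0.87) and Nlrc4 at 4 and 6 months (-0.75 and -0.60) pass the lines, and Casp8, Gsdmd and Il18 point down from 4 months on.

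The comparison of ages showed when the members changed. Between 2 and 4 months the genotype effect itself changed on the FDR alone for 2 members, Casp4 and Casp8, beside 7.33% of all genes, and for 1 member under limma's moderated test. Between 4 and 6 months it changed for 0 members, with 0 at an unadjusted p under 0.05 and 0 under the moderated test, beside 0.172% of all genes. Between 6 and 8 months it changed for 0 members, with 2 at an unadjusted p under 0.05 (Nlrc4 and Casp4) and 0 under the moderated test. Within rTg4510 mice 4 members passed the FDR between 2 and 4 months, beside 15.2% of all genes: Casp1 (log2 change 0.33 ± 0.08) and Casp4 (0.43 ± 0.07) rose, and Casp8 (-0.30 ± 0.06) and Gsdmd (-0.33 ± 0.09) fell. Within WT mice 2 members passed between 2 and 8 months, Pycard downward and Casp4 upward, beside 4.21% of all genes. In these 2 age comparisons 0 members exceeded 1.5 fold with an FDR under 0.05, also under the moderated test, while 4 and 5 had an unadjusted p under 0.05.

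Across the 28 libraries the levels of the caspases, Gsdmd and Il18 were correlated. Casp4 had a Pearson r of 0.86 with Casp1, and Casp8 had 0.87 with Gsdmd and 0.86 with Il18. Between these groups the correlations were negative, at -0.89 for Casp4 with Casp8 and -0.87 for Casp4 with Il18. Nlrp3 had an r of 0.22 with Casp4, and Aim2 had -0.28. These correlations describe libraries that share genotype and age, and no test was made of them.

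Casp1 and Casp4 have 1567 bases between them. Casp12, an inflammatory caspase gene of the same cluster, follows at chr9:5345442-5373034, 8650 bases beyond Casp4. Casp12 was lower in rTg4510 where its neighbours were higher. Its log2 signals at 8 months were 4.88, 5.13 and 4.68 in WT and 4.13, 3.62 and 3.67 in rTg4510, with no overlap. The log2 differences of Casp12 were -0.11 ± 0.13 at 2 months (FDR 0.78), -0.72 ± 0.16 at 4 months (FDR 0.0015), -0.88 ± 0.13 at 6 months (FDR 2.35e-05) and -1.09 ± 0.16 at 8 months (FDR 1.25e-05). In WT mice Casp12 rose between 2 and 8 months by 0.87 ± 0.15 (FDR 0.0025), while in rTg4510 the group means lay between 3.72 and 3.92 at all ages.

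**Figure D3:**
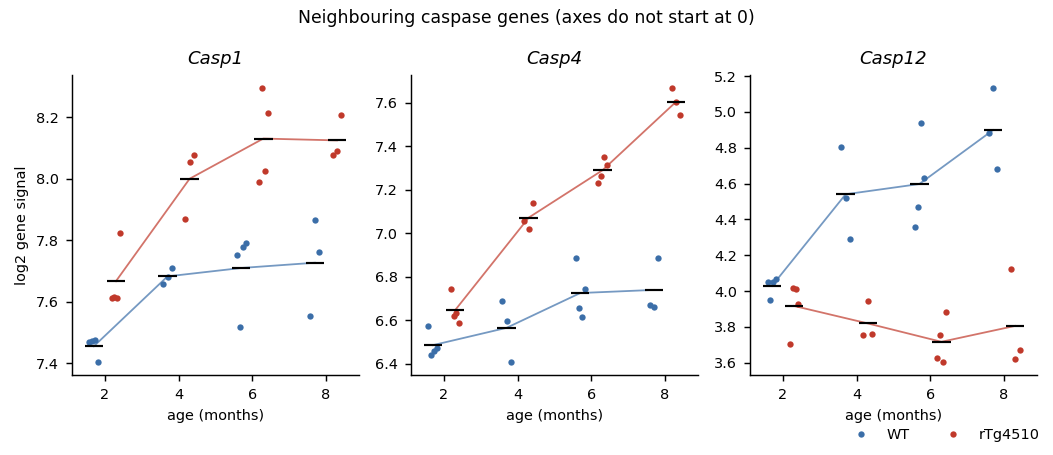
Log2 gene signal (y axis, not starting at 0) of 3 neighbouring caspase genes on chromosome 9 against age in months (x axis), 1 point per library, WT in blue and rTg4510 in red, short bars at the group means. Casp1 and Casp4 are higher in rTg4510 and Casp12 is lower from 4 months on.

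The other genes of the pathway were read from 5 lists with 75 genes, of which 61 were in the table. Of these 61, 2, 7, 8 and 10 were DEGs that were higher in rTg4510 at 2, 4, 6 and 8 months, or 3.28%, 11.5%, 13.1% and 16.4%, beside 1.58%, 9.47%, 11.3% and 10.5% of all genes. The DEGs that were lower numbered 0, 5, 5 and 4, or 0%, 8.2%, 8.2% and 6.56%, beside 0.403%, 4.33%, 8.54% and 5.37% of all genes. At 6 months both shares are near those of all genes, no excess is claimed at any age, and the counts of the single lists, of 4 to 18 genes each, are given as descriptions beside the same shares.

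The interleukin-1 and interleukin-18 system had 11 of 12 genes in the table, of which 2, 5, 4 and 4 were DEGs that were higher and 0 were lower at any age. Il1b, the main product that caspase-1 matures, had log2 signals of 6.46, 6.36, 5.93 and 5.95 in WT and 7.39, 7.24, 6.98 and 7.07 in rTg4510 at 2 months. At 8 months it had 6.85, 7.44 and 6.38 in WT and 9.47, 9.15 and 8.82 in rTg4510. Il1b libraries did not overlap at any age, and the log2 differences were 0.997 ± 0.24, 1.78 ± 0.27, 2.41 ± 0.24 and 2.26 ± 0.27 at 2, 4, 6 and 8 months. Il1a, the related cytokine that does not need caspase-1, was higher by 0.89 ± 0.18, 0.71 ± 0.21, 0.74 ± 0.18 and 0.92 ± 0.21. The study names both of these genes, so the list is not independent evidence of its direction.

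Il1rn, which encodes the receptor antagonist that blocks interleukin-1, was higher in rTg4510 from 4 months on. At 6 months its log2 signals were 3.22, 3.80, 2.71 and 3.62 in WT and 6.35, 6.04, 6.47 and 6.52 in rTg4510. The groups were far apart, at a log2 difference of 3.01 ± 0.33, an 8.05 fold increase (FDR 2.56e-07). The receptor Il1r1 was higher by 1.15 ± 0.18, 1.47 ± 0.16 and 1.36 ± 0.18 at 4, 6 and 8 months. At 2 months Il1r1 was already higher, without overlap, by 0.58 ± 0.16 (FDR 0.030), just under the 1.5 fold of a DEG. Il1rl1, the receptor of interleukin-33, was a DEG at 4 months alone (1.06 ± 0.20) and was named after its values had been seen. Il18bp, the secreted protein that neutralises interleukin-18, was not a DEG, with a log2 difference of 0.59 ± 0.22 at 8 months (FDR 0.060). Il1b and Il18, cytokines that caspase-1 matures alike, therefore differed between genotypes in opposite directions, with an r of -0.90 over the 28 libraries.

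**Figure D4:**
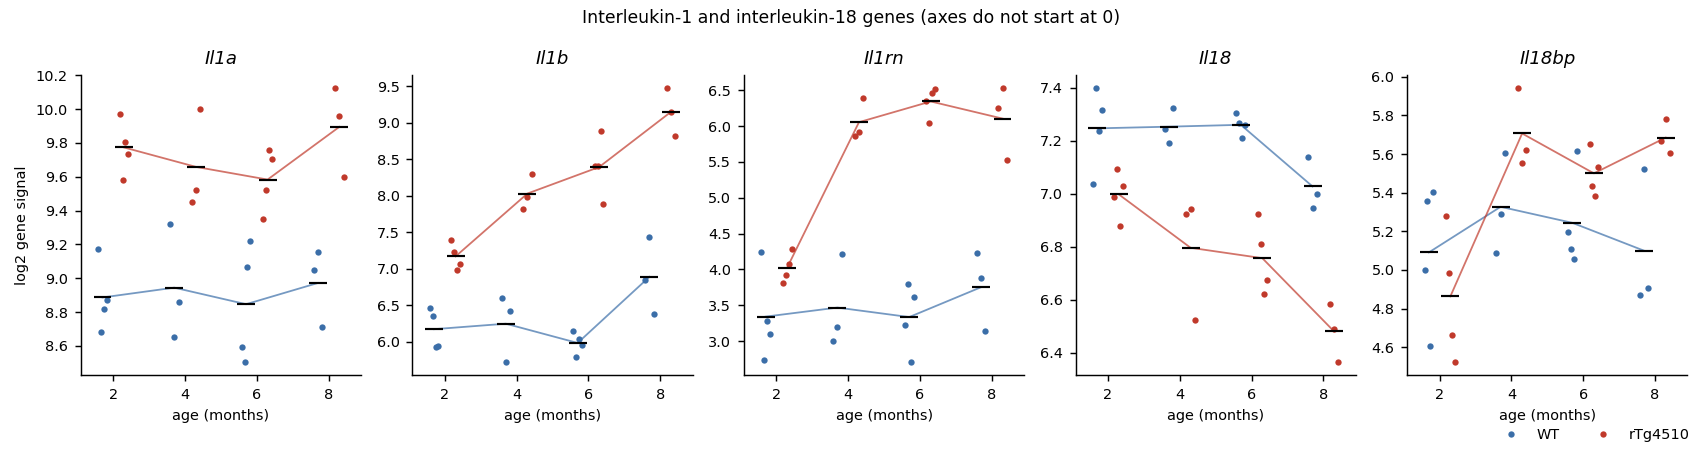
Log2 gene signal (y axis, not starting at 0) of 5 interleukin-1 and interleukin-18 genes against age in months (x axis), 1 point per library, WT in blue and rTg4510 in red, short bars at the group means. Il1a and Il1b are higher in every rTg4510 library, Il1rn separates from 4 months on, Il18 is lower from 4 months on and Il18bp overlaps at 2, 4 and 6 months.

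Of the other sensors, 15 of 19 were in the table, and 0, 1, 2 and 4 were DEGs that were higher at 2, 4, 6 and 8 months. The nucleic acid sensor Zbp1 was higher by 1.24 ± 0.22, 0.61 ± 0.19 and 0.75 ± 0.22 at 4, 6 and 8 months. Nlrc5, known as the activator of MHC class I genes, was higher by 0.75 ± 0.19 at 6 months and 1.15 ± 0.22 at 8 months, and it also rose in WT between 2 and 8 months by 1.04 ± 0.21 (FDR 0.0087). Nlrc3 (1.30 ± 0.34) and Ifi204 (0.74 ± 0.17) were DEGs at 8 months alone, and Nlrp10 (-2.17 ± 0.74) was lower at 4 months alone. These last 3 were named after their values had been seen, as were the Naip genes, of which none was a DEG. Naip2 was higher by 0.23 ± 0.05, 0.39 ± 0.06, 0.42 ± 0.05 and 0.40 ± 0.06 at 2, 4, 6 and 8 months. It passed the FDR at each age (0.011, 5.89e-05, 2.64e-06 and 3.79e-05). Naip5 passed as higher at 4, 6 and 8 months, Naip6 at 2 months alone and Naip1 at no age. At 4 months the rTg4510 libraries of Nlrp10 were at 1.45 to 2.57, near the floor of the signals. The lowest value of any gene in a library was between 1.23 and 1.92.

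Regulators of NLRP3 and caspase-11 assembly had 18 of 20 genes in the table, of which 0, 1, 2 and 2 were DEGs that were higher and 0, 2, 3 and 2 were lower. Ctsb, the lysosomal protease cathepsin B, was higher by 0.49 ± 0.08, 1.46 ± 0.10, 1.62 ± 0.08 and 1.62 ± 0.10, a 3.08 fold increase at 6 months. Guanylate-binding proteins expose bacterial lipopolysaccharide to caspase-11. Gbp3 and Gbp5 were lower from 4 months on, with log2 differences at the last 3 ages of -0.78 ± 0.19, -1.28 ± 0.17 and -0.93 ± 0.19 for Gbp3 and of -0.73 ± 0.15, -0.78 ± 0.13 and -0.60 ± 0.15 for Gbp5. Gbp2 was lower at 6 months (-0.84 ± 0.24), and its differences of -0.21 ± 0.28 at 4 months and -0.31 ± 0.28 at 8 months did not pass the FDR (0.64 and 0.46). Gbp genes have near-identical copies, so their reads may be split among paralogs and these values are uncertain. P2rx7, the ATP-gated channel upstream of NLRP3, was not a DEG. Its log2 difference of -0.16 ± 0.06 at 6 months passed the FDR (0.047). At 4 and 6 months every rTg4510 library of P2rx7 lay below every WT library. Txnip, a binder of NLRP3, was not a DEG either. Its log2 difference was -0.59 ± 0.22 at 4 months (FDR 0.054) and -0.49 ± 0.19 at 6 months (FDR 0.04997, at the threshold).

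Of the other pore and rupture proteins 4 of 11 genes were in the table and 0 were DEGs at any age. By limma 0, 2, 2 and 1 of them had an unadjusted p under 0.05 at 2, 4, 6 and 8 months, and the moderated test called 0. The gasdermin gene Gsdmc4 had the largest log2 differences of the list, -1.60 ± 0.69 at 4 months (FDR 0.10, every rTg4510 library below every WT library) and -0.86 ± 0.60 at 6 months (FDR 0.29, with overlap). Gsdme, a gasdermin that caspase-3 cuts, had a log2 difference of -0.39 ± 0.17 at 6 months (FDR 0.092), and Ninj1, which ruptures the membrane after pyroptosis, had 0.33 ± 0.13 at 8 months (FDR 0.068). Mlkl, the pore protein of necroptosis, had 0.82 ± 0.38 at 4 months (FDR 0.13) and -0.27 ± 0.33 at 6 months (FDR 0.55), with overlap at both. The death signalling list around caspase-8 had 13 of 13 genes in the table, and 2 were DEGs that were lower at 4, 6 and 8 months. These were Casp12 and Bid, the caspase-8 substrate that carries the signal to mitochondria, whose log2 differences were -0.80 ± 0.16, -0.93 ± 0.14 and -0.70 ± 0.16.

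The likeness of other genes was ranked by Pearson r over the 28 libraries for the 2 members that were DEGs at any age. The 3 genes most like Casp4 were C3 (0.962), Gpnmb (0.959) and Hcar2 (0.958). For Nlrc4 they were Adgre5 (0.775), Wdr95 (0.760) and the pseudogene Phgdh-ps1 (0.730). The libraries share genotype and age, so these values describe the pattern and are given without a test.

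The labelled cell type was checked against 12 marker lists. All 10 microglia markers were in the table and 0 of them lay within 0.5 of a library's lowest log2 value. Their log2 summed level at 2 months was 15.0 to 15.26 in WT and 14.84 to 15.01 in rTg4510. It was lower in rTg4510 without overlap at 4 months (14.91 to 15.14 against 14.72 to 14.8) and 6 months (15.06 to 15.21 against 14.68 to 14.88). The same held at 8 months (14.79 to 15.05 against 14.47 to 14.57). Of these 10 markers 1, 2, 3 and 3 were DEGs that were lower at the 4 ages. Of 10 neutrophil markers 0, 1, 9 and 8 were lower, and 0 were higher. Of 8 monocyte markers 0, 1, 2 and 1 were higher and 0, 1, 4 and 0 were lower, and of 6 proliferation markers 0, 5, 0 and 0 were higher and 0, 0, 5 and 2 were lower. The summed proliferation level was 6.38 to 6.85 in WT and 7.50 to 7.84 in rTg4510 at 4 months, and 7.04 to 7.33 against 6.26 to 6.64 at 6 months. Of the other lists, 1 of 5 T and NK cell markers was higher at each age and 2 were lower at 6 months, 2 of 5 B cell markers were lower at 4 months, and 1 of 6 border macrophage markers was lower at 4 and 6 months. Of 6 markers each, dendritic cell genes had 1 lower at 4 and 8 months, endothelial genes had 4 lower at 6 months with 1 lower at 4 and 8 months and 1 higher at 4, 6 and 8 months, astrocyte genes had 1 higher and 1 lower at 6 months and 1 higher and 2 lower at 8 months, and oligodendrocyte genes had 0 called. Of 3 neuron markers 1 was lower at 6 months. Elane and Cd3e, defining markers of neutrophils and T cells, lay within 0.5 of the lowest value in 9 of 28 libraries each, and the other 9 neutrophil markers in 0. The part of these cells in the members' differences was not tested.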

How the data were processed

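RNA from CD11b bead-captured microglia was sequenced as 32 libraries, and the 28 that the authors kept after quality control were analysed. The authors made the deposited log2 gene signals by summing exon reads over runs, leaving out exons with under 10 counts in more than 80% of samples, combining each gene's exons by robust linear regression and median normalizing. Libraries therefore share a median of 5.63. The build is GRCm38 per the labels, and the aligner, annotation and strand setting are not given in the sources used here. The study gives 1 approximate read number for all samples, and since the table holds no counts, no counting interval was computed. With 3 or 4 libraries a group, that number limits the precision. Labels call the libraries replicates, each a pool of animals, so errors describe the spread between pools.

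Per gene, the package limma 3.58.1 (R 4.3.3, with the reader data.table at version 1.17.8) fitted 8 group means with unmoderated variances and 20 residual degrees of freedom. P-values were adjusted by Benjamini-Hochberg within a contrast, over all 18588 genes. This fit was checked on simulated data. The genotype contrasts of neighbouring ages share libraries with their interaction tests. Of the Entrez numbers 95.9% were matched to the RefSeq annotation of GRCm38.p6. Tables, motif counts and figures were made with Python 3.11.15, numpy 2.4.6, pandas 2.3.3 and matplotlib 3.10.9. A summed marker level is the log2 of the sum of the markers' linear signals. The 10 members and the lists were chosen with earlier results of these data known. All members are named, and from each other list up to 4 genes that were DEGs with the largest change at 6 months (or the largest changes where under 2 were DEGs), plus Il1b, Il1a, Il1rn, Il18bp, P2rx7 and Txnip. The few pathway genes named beyond these are said to have been chosen after their values were seen. The alternatives were moderated variances, all 32 libraries, only the groups compared, quantile normalization, a replicate block, a filter at the 25th percentile of signal, the FDR alone and leaving out each library.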

Additional observations from a re-analysis of the deposited data

Results flagged for a closer look

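In 7 of the 40 groups of 4 libraries that were examined (10 members in 4 groups), 1 library stood apart from the other 3. Chance alone gives about 1 in 20 for independent groups. These groups share libraries and several members are correlated, so no excess is claimed. The gap to the nearest library, as a share of the group's range, was 0.91 for Nlrp3 in rTg4510 mice at 2 months (8.41 against 8.64 to 8.66) and 0.904 for Aim2 in rTg4510 mice at 6 months (8.89 against 8.71 to 8.72). For Casp1 it was 0.908 in WT at 2 months (7.40 against 7.47 to 7.48), 0.851 in WT at 6 months (7.52 against 7.75 to 7.79) and 0.984 in rTg4510 at 2 months (7.83 against 7.61 to 7.62). For Casp8 it was 0.888 in WT at 2 months (8.83 against 9.0 to 9.02) and 0.95 in rTg4510 at 6 months (8.26 against 8.48 to 8.49).

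The genotype effect differed between 4 and 2 months by 0.35 on the log2 scale for Casp4 (FDR 0.035) and by -0.36 for Casp8 (FDR 0.0082), by limma's test of the difference itself.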

How the results depend on the processing

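The number of members called was 0 at 6 months with all 32 libraries, and 0 at 4 months and 0 at 6 months when only the groups compared were fitted. Under quantile normalization it stayed at 1 at 6 months with Casp8 (-0.69) in place of Nlrc4 (-0.52). On the FDR alone it was 6, 8 and 6 at 4, 6 and 8 months, 2 for the genotype effect at 4 against 2 months, 2 for WT at 8 against 2 months and 4 for rTg4510 at 4 against 2 months. Leaving out 1 library gave 0 to 1 at 4 months (0 without rTg4510 replicate 2, WT replicate 2 or WT replicate 4), 0 to 1 at 6 months (0 without rTg4510 replicate 4 or WT replicate 3, and 1 without WT replicate 1, where Nlrc4 was lost and Casp4 entered at 0.62) and 1 to 2 at 8 months, where Il18 was added without rTg4510 replicate 1 or WT replicate 2.

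With the replicate block the counts stayed at 0, 1, 1 and 1, and Nlrp3 at 8 months passed the FDR (0.033) where it had not (0.052). Labels give the genotypes the same replicate numbers. Deviations from the group means correlated between same-numbered WT and rTg4510 libraries at 0.0649 to 0.167 (2 months), -0.0999 to 0.124 (4 months), 0.131 to 0.153 (6 months) and 0.15 to 0.291 (8 months), so not every pair was above 0.1 and the numbers were not taken to pair the libraries. At 6 and 8 months every library correlated best with its own number. At 2 months all did so but rTg4510 replicate 3, at 0.0671 with WT replicate 1 and 0.0649 with its own number. At 4 months only the libraries numbered 2 did so. This is a hint from the data and not from the design.

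Signs changed only for fold changes that did not pass the FDR. Aim2 at 4 months was -0.0287 with all 32 libraries and -0.14 under quantile normalization, Nlrc4 at 8 months was -0.053 with all 32 libraries, and Nlrp3 at 6 months was -0.0574 under quantile normalization. Without 1 library the ranges were -0.0554 to 0.00904 for Casp8 and -0.0445 to 0.0477 for Gsdmd at 2 months, -0.18 to 0.0118 for Nlrp3 and -0.0426 to 0.0584 for Aim2 at 4 months, -0.0289 to 0.196 for Nlrp3 at 6 months, and -0.0662 to 0.156 for Nlrc4 and -0.0788 to 0.0574 for Aim2 at 8 months. The causes were not tested. Of 1360 fold changes of members over 34 settings, 1232 kept their direction and side of the threshold, 92 no longer passed, 15 newly passed and 21 changed sign.

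With all 32 libraries Casp8 and Il18 at 4 months were -0.18 (FDR 0.22) and -0.16 (FDR 0.45). Casp4 at 8 months was called in 34 of 34 settings, Nlrc4 at 4 months in 30 and at 6 months in 28.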

Other observations

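The 4 libraries that the authors left out for quality entered the results above only where all 32 libraries are named or these 4 are said to have been added. In the one labelled rTg4510 replicate 3 at 4 months, Pycard was at 9.77, beside 8.85 to 9.12 in the 3 rTg4510 libraries kept at that age, and Nlrc4 was at 3.17, beside 4.01 to 4.46. In that library Casp8 was at 9.11 and Il18 at 7.50, where the libraries kept had 8.57 to 8.71 and 6.52 to 6.94, and Casp4 was at 6.34, where they had 7.02 to 7.14. In the one labelled WT replicate 3 at 4 months, Casp4 was at 5.59 and Casp1 at 7.09, beside 6.41 to 6.69 and 7.66 to 7.71 in the WT libraries kept. In the 8 month libraries that were left out, Casp4 was at 7.10 in rTg4510 and 6.10 in WT and Casp8 at 8.02 in rTg4510 and 8.91 in WT.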
